A study of Mus musculus with 14 samples.

Results

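The Hox genes are 39 protein-coding genes in the annotation of these counts, out of 55450 gene identifiers, and were taken by symbol: the word Hox, a cluster letter from a to d and a paralog number. The Hoxa cluster held 11 of them (GRCm38 chromosome 6, minus strand), the Hoxb cluster 10 (chromosome 11, plus strand), the Hoxc cluster 9 (chromosome 15, plus strand) and the Hoxd cluster 9 (chromosome 2, plus strand). RNA was sequenced from long-term hematopoietic stem cells (LT-HSCs), which sit in bone marrow and sustain blood formation for life, of female C57BL/6 mice. The post-transplant groups were Selp high-derived and Selp low-derived LT-HSCs, 3 libraries each, sorted 16 weeks after 1000 Selp high or Selp low cells of old donors had been given to lethally irradiated recipients aged 10 to 16 weeks. The pre-transplant groups were LT-HSCs with high or low surface P-selectin (Selp), an adhesion receptor, 4 libraries each, from 4 mice older than 24 months. The labels give the same strain for all groups and name no engineered allele, and all cells passed a sort for c-Kit, Sca-1 and CD150 that left out cells with CD48 or lineage markers. After transplantation the gate added CD45.2, a donor marker, and did not use P-selectin. Recipient, irradiation, the added gate and collection all changed with the stage and cannot be told apart from it. The sources used here do not say whether each post-transplant library came from its own recipient, so p-values measure the spread between these libraries. Both pre-transplant libraries of a mouse were fitted as independent, so with both inputs together each donor mouse counts with both of its libraries.

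Hox genes encode homeodomain transcription factors that give positional identity along the body axis, and their order in a cluster follows the order in which the axis uses them, low paralog numbers anterior and high numbers posterior. In blood the same clusters serve stem and progenitor cells. Hoxa9 is needed for full repopulating ability and drives leukemia together with its cofactor Meis1, Hoxb4 expands HSCs when overexpressed, and a Hoxb5 reporter marks long-term HSCs in mouse marrow. Hox proteins bind DNA with TALE homeodomain partners of the Pbx and Meis families, and their clusters are kept open by Trithorax (MLL) complexes and closed by Polycomb complexes.

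Libraries held 22374794 to 38216775 reads assigned to genes, of which 3980 to 8541 fell on Hox genes. Levels are given as CPM, counts scaled to library size. Kit (947 to 1480 CPM after and 1010 to 1750 CPM before transplantation) was high in every library, and the 13 genes listed as HSC markers summed to 3530 to 4750 CPM after and 4880 to 5870 CPM before transplantation. That list includes Cd48, whose product the sort excluded, and the progenitor gene Flt3, at no more than 21.0 and 30.5 CPM. Neutrophil markers were present in all libraries and uneven, with a sum of 438 to 12700 CPM after and 416 to 20200 CPM before transplantation, highest in Selp low-derived replicate 2 and the pair of libraries from mouse 4. Each library was a bulk sample, so fewer cells of a type and less RNA per cell cannot be told apart.

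Of the 39 Hox genes, 19 had enough reads to be tested: 9 Hoxa, 7 Hoxb and 3 Hoxc genes, and no Hoxd gene. The other 20 comprised 7 genes with no read in any library (Hoxa11, Hoxc13, Hoxd3, Hoxd4, Hoxd10, Hoxd11 and Hoxd12), 8 genes with 1 to 10 reads over all 14 libraries, and 5 genes with 16 to 94 reads (Hoxb1, Hoxb3, Hoxc9, Hoxc10 and Hoxd13). A count of 0 in one library allows a level of up to 0.0803 to 0.129 CPM, depending on its depth, and covers counting error only. Hoxd13, a posterior gene of limb and genital development, had 37 reads in 5 pre-transplant libraries, 20 of them in a single one. The posterior groups 11 to 13 gave no tested gene in any cluster. Members that passed the filter did so on their reads, so the counts below describe those 19 and not all 39.

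**Figure D1:**
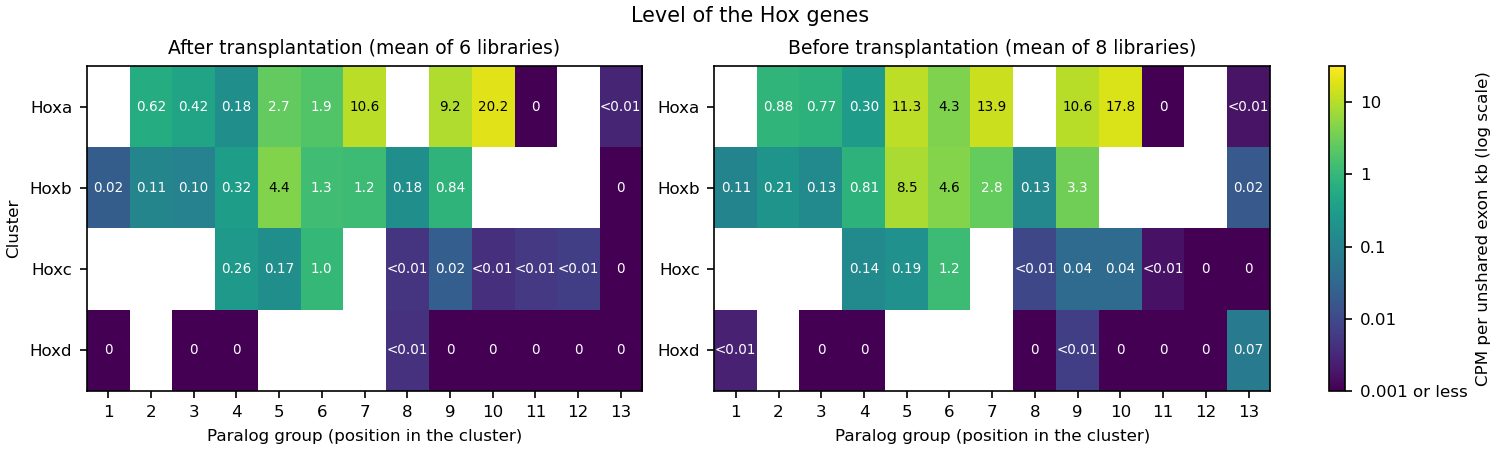
Level of the Hox genes by cluster (rows) and paralog group (columns), as mean CPM per kilobase of unshared exon, after transplantation (left, 6 libraries) and before it (right, 8 libraries). Color is on a log scale, white squares hold no value, and the brightest squares in both panels are Hoxa5, Hoxa6, Hoxa7, Hoxa9, Hoxa10, Hoxb5, Hoxb6, Hoxb7, Hoxb9 and Hoxc6.

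Levels between genes were compared as CPM per kilobase of exon that no other annotated gene overlaps, since reads over 2 genes were not counted for either. On that scale Hoxa10 was highest (18.9 CPM per kb, mean of 14 libraries), followed by Hoxa7 (12.5), Hoxa9 (10.0), Hoxa5 (7.63), Hoxb5 (6.75), Hoxa6 (3.28), Hoxb6 (3.2), Hoxb9 (2.27), Hoxb7 (2.12) and Hoxc6 (1.13). Hoxa10 lay at the 83.5th percentile of 21767 protein-coding genes on this scale, Hoxa7 at the 77.5th and Hoxa9 at the 74.0th. Hoxa7, Hoxa9 and Hoxa10 together took 69.9% of all Hox reads. The Hoxa cluster took 75.3 to 90.0% of a library's Hox reads, the Hoxb cluster 9.57 to 23.8%, the Hoxc cluster 0.455 to 3.33% and the Hoxd cluster 0 to 0.447%.

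After transplantation Hox gene levels were lower for part of the family, on chromosome 6 and chromosome 11. Taking both inputs together, 9 of 19 tested Hox genes fell after transplantation and none rose (edgeR's quasi-likelihood test, Benjamini-Hochberg adjusted p under 0.05 over 16878 genes). Over all genes tested 27.4% were called in either direction and 14.6% as lower. The 9 comprised 4 of 9 tested Hoxa genes, Hoxa3, Hoxa5 and Hoxa6 among them, 5 of 7 tested Hoxb genes (Hoxb4, Hoxb5, Hoxb6, Hoxb7 and Hoxb9) and 0 of 3 tested Hoxc genes. The fitted change was below 0 for 16 of 19 genes, and its median was -0.87 on the log2 scale over the 19 Hox genes and -0.01 over all genes tested. By position, 6 of 12 tested genes of paralog groups 4 to 8 and 1 of 3 of groups 9 to 13 fell. Summed over the cluster, Hoxb reads came to 20.3 ± 4.59 CPM after (SD, n = 6) and 48.4 ± 9.65 CPM before transplantation (n = 8 libraries of 4 mice). The groups were apart at 16.3 to 29.2 and 32.3 to 63.3 CPM. This count leaves out bases shared with antisense genes and so holds 173 reads of Hoxb2, against 12661 in summed counts described below. In those Hoxb2 overlapped between stages, at 20.8 to 27.5 CPM after and 21.1 to 42.7 CPM before. Cluster sums per library were not formed with them, so the separation is shown for the unstranded count only. The Hoxa sum was 151 ± 12.4 CPM after and 179 ± 20.5 CPM before, overlapping at 129 to 165 and 154 to 220 CPM, and the Hoxc sum 3.68 ± 1.81 and 4.03 ± 1.06 CPM.

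Hoxb9, a posterior gene of the Hoxb cluster at chromosome 11, 96271457 to 96276595, had the smallest p of the family. It had 1.28, 2.14 and 1.25 CPM in Selp high-derived and 2.20, 3.47 and 2.62 CPM in Selp low-derived libraries, against 13.3, 9.16, 9.47 and 9.27 CPM in Selp high and 9.82, 6.56, 5.44 and 6.02 CPM in Selp low libraries. All 6 post-transplant libraries were lower than all 8 pre-transplant ones. The mean was 2.16 ± 0.84 CPM after and 8.62 ± 2.55 CPM before, a log2 fold change of -2.03 ± 0.21 (SE, edgeR adjusted p = 1.68e-05). The change was -2.73 ± 0.31 from Selp high input (adjusted p = 0.000124) and -1.33 ± 0.29 from Selp low input (adjusted p = 0.0103).

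Hoxa5, a central gene of the Hoxa cluster at chromosome 6, 52201754 to 52204587, fell about as much. It had 6.61, 5 and 4.45 CPM in Selp high-derived and 3.81, 5.99 and 4.08 CPM in Selp low-derived libraries, against 37.4, 20, 14.5 and 21.2 CPM in Selp high and 32.8, 15.1, 13.4 and 16.1 CPM in Selp low libraries. The stages did not overlap, and mouse 1 was the highest of the 4 mice in both of its libraries. The log2 fold change was -2.09 ± 0.27 (edgeR adjusted p = 7.26e-05), -2.12 ± 0.38 from Selp high input and -2.06 ± 0.38 from Selp low input.

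Hoxb6, at chromosome 11, 96292476 to 96301569, has been tied to early hematopoietic progenitors. It had 1.28, 2.44 and 2.26 CPM in Selp high-derived and 2.78, 4.44 and 2.45 CPM in Selp low-derived libraries, against 10.2, 9.91, 11.2 and 6.85 CPM in Selp high and 10.9, 8.75, 8.91 and 5.54 CPM in Selp low libraries. Again no post-transplant library reached the lowest pre-transplant one, and both libraries of mouse 4 were the lowest of their groups. Its log2 fold change was -1.83 ± 0.23 (edgeR adjusted p = 6.5e-05).

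Hoxb5, the gene whose reporter marks long-term HSCs, at chromosome 11, 96303336 to 96306121, had 12.9, 10.5 and 11.4 CPM in Selp high-derived and 13, 13.1 and 9.91 CPM in Selp low-derived libraries, against 24.3, 24.0, 23.6 and 14.2 CPM in Selp high and 33.3, 25.8, 22.9 and 15.1 CPM in Selp low libraries. The stages did not overlap, and the libraries of mouse 4, at 14.2 and 15.1 CPM, came closest to the highest post-transplant value of 13.1 CPM. The log2 fold change was -0.95 ± 0.18 (edgeR adjusted p = 0.00144), smaller in size than those of Hoxb9, Hoxa5 and Hoxb6. These 4 of 19 tested Hox genes had all post-transplant libraries below all pre-transplant ones, beside 5.47% of all genes tested.

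The other Hoxb genes that fell overlapped between stages. Hoxb4, the HSC-expanding factor, had 0.782, 0.546 and 0.303 CPM in Selp high-derived and 0.586, 1.77 and 0.901 CPM in Selp low-derived libraries, against 1.57, 1.31, 2.62 and 3.68 CPM in Selp high and 2.02, 2.19, 1.43 and 1.87 CPM in Selp low libraries (log2 fold change -1.43 ± 0.34, edgeR adjusted p = 0.00667). Only Selp low-derived replicate 2 reached the pre-transplant range. Hoxb7, a central gene, had 2.28, 1.98 and 0.505 CPM in Selp high-derived and 1.21, 3.83 and 1.67 CPM in Selp low-derived libraries, against 4.86, 5.79, 4.27 and 4.52 CPM in Selp high and 5.5, 3.80, 3.05 and 2.60 CPM in Selp low libraries (-1.18 ± 0.34, edgeR adjusted p = 0.0205). Its call was lost without Selp low-derived replicate 1 (adjusted p = 0.0545) or replicate 3 (0.0507).

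In the Hoxa cluster Hoxa6, the neighbor of Hoxa5, had 1.39, 1.68 and 1.55 CPM in Selp high-derived and 1.21, 3 and 1.07 CPM in Selp low-derived libraries, against 5.89, 3.70, 4.85 and 1.98 CPM in Selp high and 5.57, 2.01, 2.93 and 3.32 CPM in Selp low libraries (log2 fold change -1.19 ± 0.33, edgeR adjusted p = 0.0145). Selp low-derived replicate 2 again lay inside the pre-transplant range. Hoxa3, an anterior gene, had 1.46, 1.85 and 2.26 CPM in Selp high-derived and 1.76, 0.867 and 2.92 CPM in Selp low-derived libraries, against 4.13, 2.58, 3.99 and 3.33 CPM in Selp high and 4.55, 2.89, 3.86 and 1.80 CPM in Selp low libraries (-0.87 ± 0.29, edgeR adjusted p = 0.0367). Hoxa3 lost its call when 1 library was left out, either Selp high-derived replicate 1 or 2, Selp low-derived replicate 1 or 2, Selp high replicate 1 or 3, or Selp low replicate 1 or 3 (adjusted p = 0.0630 to 0.0793).

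**Figure D2:**
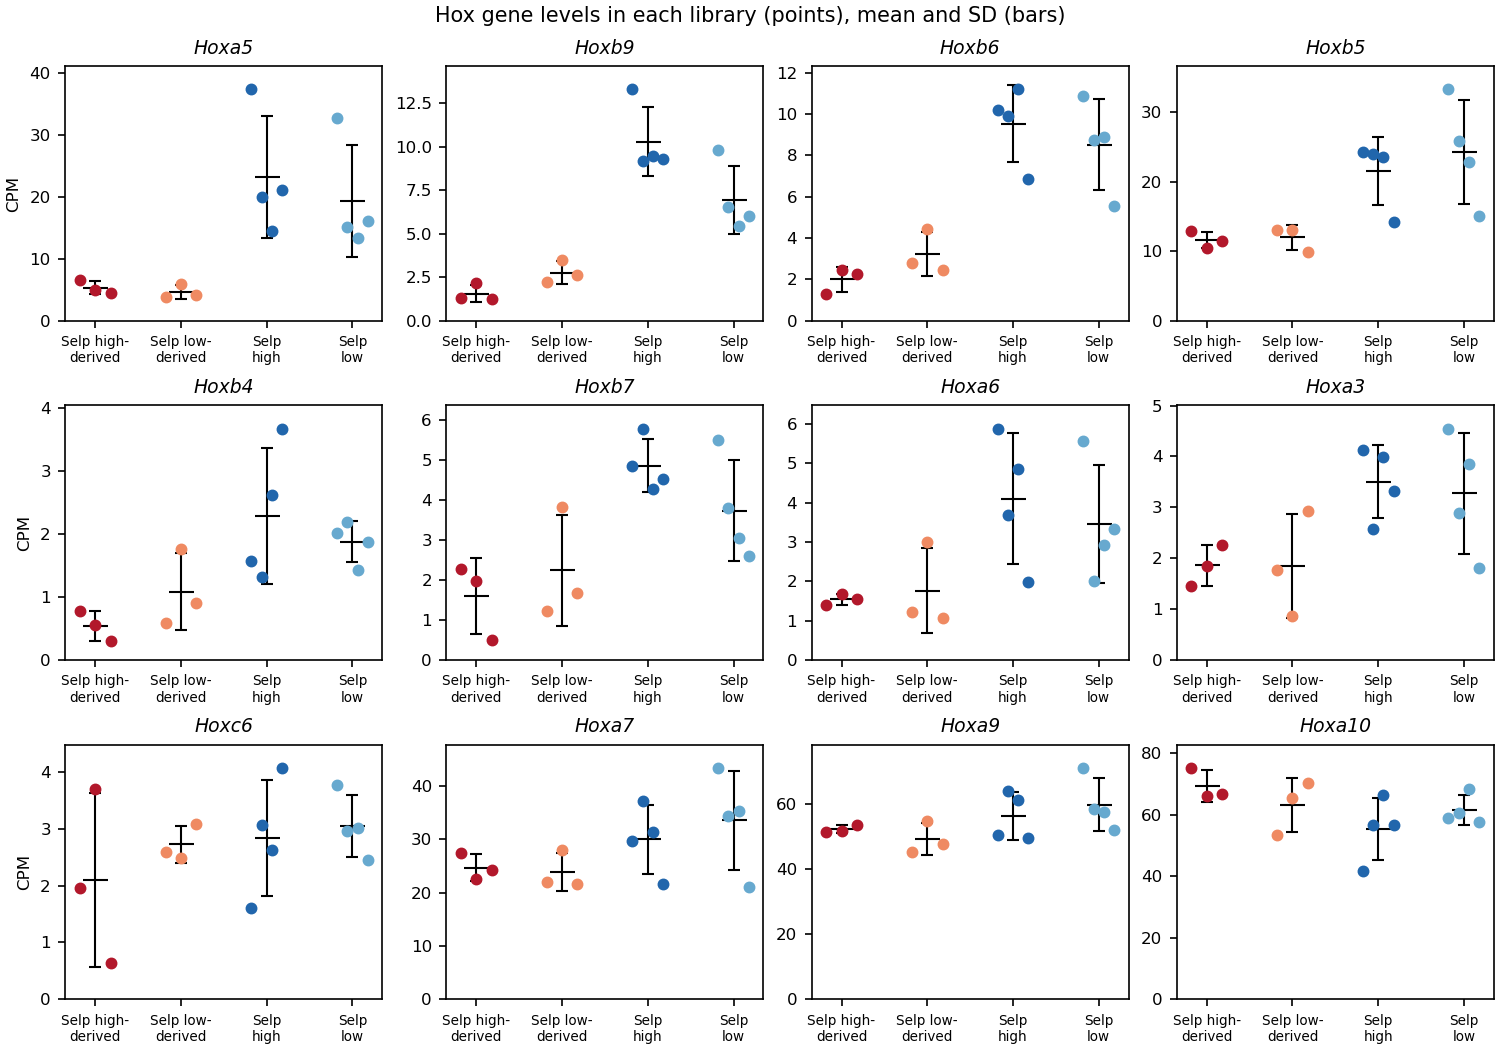
CPM of 12 Hox genes in each library (points), with the mean and SD of each group (bars), post-transplant groups at the left. Hoxa5, Hoxb9, Hoxb6 and Hoxb5 show no overlap between the 6 post-transplant and 8 pre-transplant libraries, while Hoxa7, Hoxa9 and Hoxa10 overlap.

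The most abundant members did not pass the test. Hoxa10, at chromosome 6, 52231197 to 52240854, which regulates myeloid progenitors, had 75.3, 66.1 and 66.7 CPM in Selp high-derived and 53.4, 65.4 and 70.4 CPM in Selp low-derived libraries, against 41.6, 56.6, 66.3 and 56.7 CPM in Selp high and 59.0, 60.4, 68.5 and 57.6 CPM in Selp low libraries (log2 fold change 0.18 ± 0.10, edgeR adjusted p = 0.208). Hoxa9, at chromosome 6, 52223100 to 52231089, had 51.3, 51.7 and 53.6 CPM in Selp high-derived and 45.4, 54.8 and 47.6 CPM in Selp low-derived libraries, against 50.4, 64.1, 61.4 and 49.6 CPM in Selp high and 71.2, 58.4, 57.5 and 52.0 CPM in Selp low libraries (-0.19 ± 0.09, edgeR adjusted p = 0.138). Both genes overlapped widely between stages. Hoxa7, a target of MLL fusions in leukemia, had 27.4, 22.5 and 24.2 CPM in Selp high-derived and 22, 28.1 and 21.7 CPM in Selp low-derived libraries, against 29.7, 37.3, 31.5 and 21.6 CPM in Selp high and 43.5, 34.5, 35.3 and 21.0 CPM in Selp low libraries (-0.39 ± 0.16, edgeR adjusted p = 0.0896). The 2 libraries of mouse 4 gave the lowest values of Hoxa7 and, for Hoxa9, the lowest of their groups. Without them the change was -0.54 for Hoxa7 (edgeR adjusted p = 0.00317) and -0.25 for Hoxa9 (edgeR adjusted p = 0.0496). Leaving out the lowest pre-transplant values enlarges such a difference by itself, so these values are no support for a fall. As a share of all Hox reads, Hoxa10 took 37.8% after and 25.5% before transplantation, and Hoxa5 took 2.83% after and 9.16% before.

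The remaining tested genes were low and were not called. Hoxc6, the highest Hoxc gene, had 1.96, 3.70 and 0.640 CPM in Selp high-derived and 2.60, 2.49 and 3.09 CPM in Selp low-derived libraries, against 1.61, 3.07, 2.62 and 4.08 CPM in Selp high and 3.78, 2.97, 3.01 and 2.46 CPM in Selp low libraries (log2 fold change -0.30 ± 0.32, edgeR adjusted p = 0.519). Hoxa2, Hoxa4, Hoxb2, Hoxb8, Hoxc4 and Hoxc5 had means over all libraries of a stage of 0.236 to 0.938 CPM after and 0.342 to 1.32 CPM before transplantation, with fitted changes of -0.89 to 0.88. The signs of the changes of Hoxb8, Hoxc4 and Hoxc5 turned under several alternatives, so none is given a direction. By paralog group, leaving out those 3 genes, the change in group 9 was -0.19 for Hoxa9 and -2.03 for Hoxb9, in group 7 it was -0.39 for Hoxa7 and -1.18 for Hoxb7, and in group 6 -1.19 for Hoxa6, -1.83 for Hoxb6 and -0.30 for Hoxc6. In group 5 it was -2.09 for Hoxa5 and -0.95 for Hoxb5, in group 4 -0.78 for Hoxa4 and -1.43 for Hoxb4, and in group 2 -0.50 for Hoxa2 and -0.89 for Hoxb2. These differences between genes were not tested.

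Taken by input, 6 of 19 Hox genes fell from Selp high input (Hoxa5, Hoxb4, Hoxb5, Hoxb6, Hoxb7 and Hoxb9) beside 15.2% of all genes called in either direction and 7.62% as lower (7.63% as higher). From Selp low input 4 of 19 fell (Hoxa5, Hoxb5, Hoxb6 and Hoxb9), beside 11.5% of all genes called in either direction, 6.46% as lower and 5.01% as higher. The difference between the inputs is the difference of the Selp differences between stages, for which no Hox gene was called. The count for Selp high input was 3 without Selp high-derived replicate 3, and that for Selp low input was 1 when Selp low-derived replicate 1 was left out and 2 when replicate 3 was. Over the 24 alternatives tried for each input, the calls of Hoxa5, Hoxb6 and Hoxb9 from Selp high input and of Hoxa5 from Selp low input held in all 24. The call of Hoxb4 from Selp high input held in 23, lost without Selp high-derived replicate 3 (-1.80, adjusted p = 0.0638), that of Hoxb5 in 16 and that of Hoxb7 in 15. From Selp low input the calls of Hoxb9, Hoxb6 and Hoxb5 held in 23, 22 and 20, and all 3 were lost without Selp low-derived replicate 1 (adjusted p = 0.0601, 0.0650 and 0.0651).

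**Figure D3:**
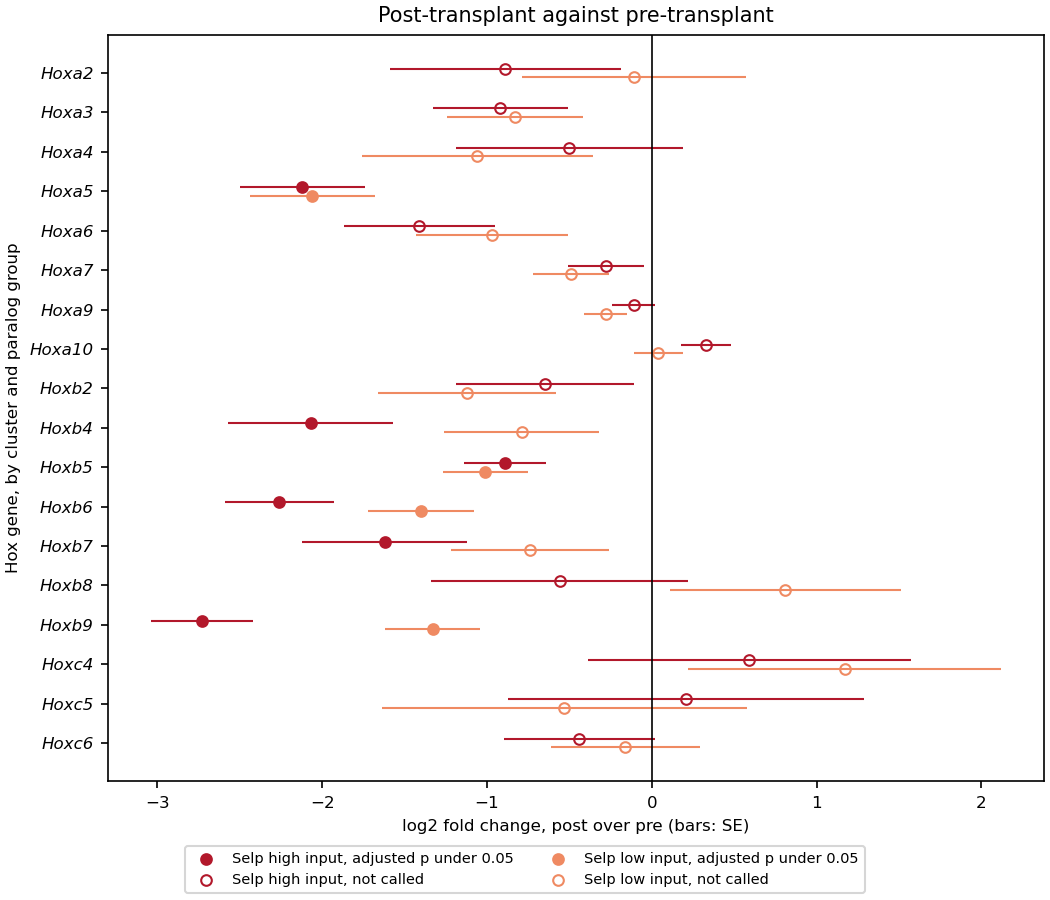
log2 fold change of tested Hox genes after against before transplantation, for Selp high and Selp low input (points, with SE as bars), in cluster order. Filled points passed the test: 6 genes from Selp high input, reaching -2.73 for Hoxb9, and 4 from Selp low input.

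No Hox gene passed the test for P-selectin at either stage. Among Selp high-derived against Selp low-derived libraries, and among Selp high against Selp low libraries, 0 of 19 Hox genes passed the test by edgeR, DESeq2 or limma voom. The same held for the difference of the Selp differences. Over all genes 0% were called in each of these comparisons by edgeR. At an unadjusted p under 0.05, edgeR picked 2 Hox genes after transplantation, 1 before and 1 for the difference of differences, beside 765, 863 and 874 of 16878 genes.

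The smallest p in all 3 belonged to Hoxb9. It averaged lower in Selp high-derived than in Selp low-derived libraries (log2 fold change -0.83 ± 0.31, edgeR adjusted p = 0.979), and these 3 and 3 values did not overlap. Before transplantation its log2 fold change was 0.56 ± 0.26 (edgeR adjusted p = 0.957), with the Selp high library above the Selp low one in 4 of 4 mice. Hoxa5 was also higher in 4 of 4 mice (0.27 ± 0.32) and Hoxa10 in 0 of 4 (-0.15 ± 0.14), so 3 of 19 tested Hox genes had 1 direction in all mice, beside 23% of all genes tested. The difference of these differences was -1.39 ± 0.40 (edgeR adjusted p = 0.879). Hoxb6 did not overlap after transplantation either (-0.70 ± 0.33, edgeR adjusted p = 0.979), so 2 of 19 tested Hox genes were without overlap at that stage, beside 10.3% of all genes tested, and none before transplantation, beside 3.08%. Hoxb6 also had the second smallest p for the difference of differences (-0.86 ± 0.44, edgeR adjusted p = 0.879).

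Hoxb8, which blocks myeloid maturation when forced on, came next after transplantation. It had 0.320, 0.168 and 0.0337 CPM in Selp high-derived and 0.366, 1.59 and 0.300 CPM in Selp low-derived libraries, against 0.153, 0.336, 0.379 and 0.158 CPM in Selp high and 0.405, 0.642, 0.347 and 0.311 CPM in Selp low libraries. A single library, Selp low-derived replicate 2, was far above the rest, and the log2 fold change of Selp high-derived over Selp low-derived was -2.09 ± 0.81 (edgeR adjusted p = 0.979). Hoxb2, an anterior gene, was second before transplantation, with 0.421, 0.336, 0.482 and 0.475 CPM in Selp high and 0.843, 0.776, 0.656 and 0.346 CPM in Selp low libraries (-0.61 ± 0.48, edgeR adjusted p = 0.961). That value rests on few reads, and in the counts of both strands added together, described next, it was -0.03 ± 0.21 (edgeR adjusted p = 0.997). After transplantation Hoxb2 had 0.178, 0.336 and 0.303 CPM in Selp high-derived and 0.256, 0.506 and 0.129 CPM in Selp low-derived libraries. SEs in these 2 comparisons were 0.12 to 1.18 on the log2 scale, smallest for Hoxa9 and largest for Hoxc5, so small differences of genes with large SEs were not detectable.

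**Figure D4:**
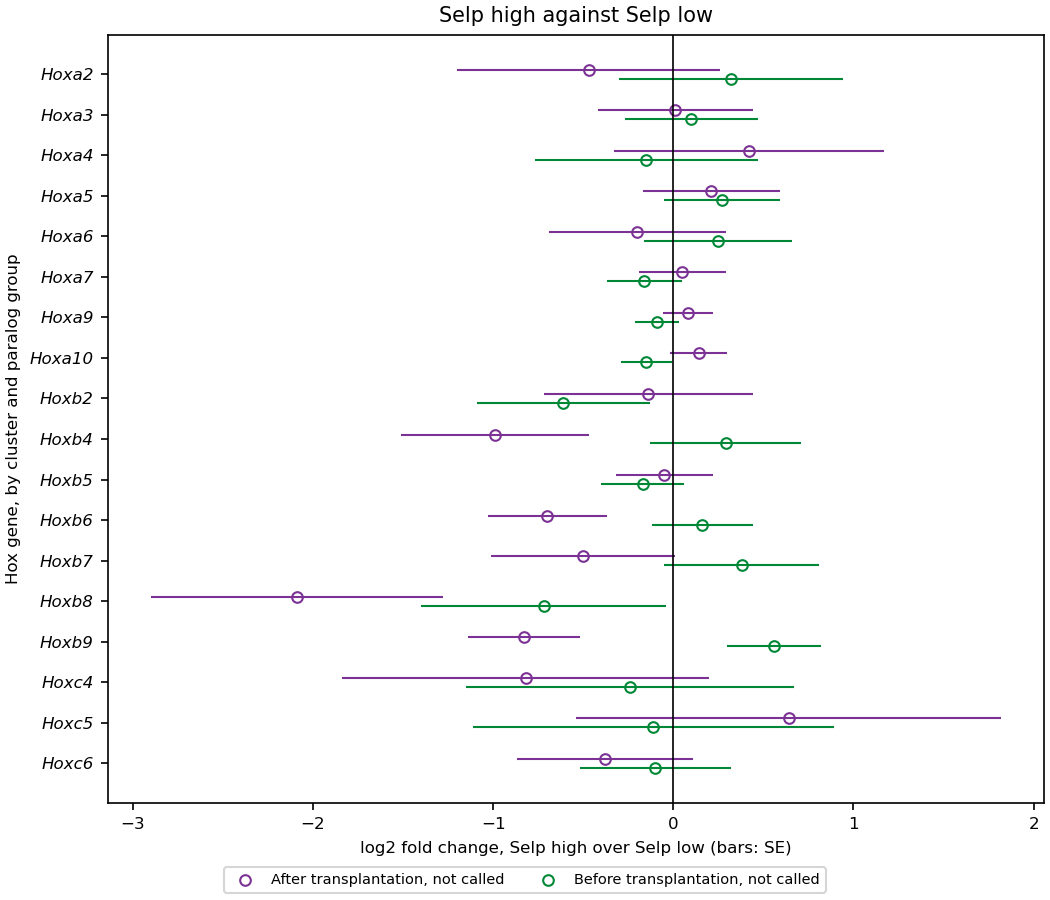
log2 fold change of Selp high over Selp low for tested Hox genes, after transplantation (Selp high-derived over Selp low-derived) and before it (points, with SE as bars). All points are open because none of these genes passed the test, and Hoxb9 lies at -0.83 after and 0.56 before.

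The level of Hoxb2 depends on how reads over both strands are counted. Hoxb2 (chromosome 11, 96350525 to 96354012) shares 953 exon bases with the antisense gene Hoxb3os, and Hoxb3 shares 2250 exon bases with the same antisense gene. In the counts made without regard to strand, Hoxb2 had 173 reads over the 14 libraries, Hoxb3 94 and Hoxb3os 326. In the 2 strand-specific counts of the same files, added together, Hoxb2 had 12661 reads, Hoxb3 687 and Hoxb3os 13430. Reads over the shared bases count for both genes in that sum and for neither in the unstranded count, and the libraries do not keep strand, so the reads of Hoxb2 and Hoxb3os cannot be told apart.

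With the summed counts and full exon length, Hoxb2 ranked 4th among Hox genes at 8.69 CPM per kb, where it had ranked 18th at 0.17 CPM per unshared kb. The Hoxb cluster then held 28.8% of all Hox reads, where it had 17.7% in the unstranded count. Both the rank and this share credit reads over bases shared with Hoxb3os to Hoxb2. Reads counted for Hoxb2 alone, which has 2535 unshared exon bases, numbered 173. In these summed counts Hoxb2 had 20.8, 23.4 and 25.1 CPM in Selp high-derived and 21.5, 27.5 and 20.9 CPM in Selp low-derived libraries, against 36.5, 42.7, 37.3 and 21.1 CPM in Selp high and 39.5, 38.9, 38.3 and 23.7 CPM in Selp low libraries. The 2 libraries of mouse 4 lay within the post-transplant range and the other 6 pre-transplant libraries above it. The log2 fold change was -0.58 ± 0.16 (edgeR adjusted p = 0.0155, where 28% of 18360 genes were called in either direction and 14.7% as lower), and it was -0.56 ± 0.15 for Hoxb3os, which rests on nearly the same reads. The unstranded count gave -0.89 ± 0.38 for Hoxb2 (edgeR adjusted p = 0.101). It gave -1.19 without Selp low-derived replicate 2, which held the highest post-transplant value in that count (edgeR adjusted p = 0.0382). Hoxa4, Hoxa3 and Hoxa7, which also share exon bases with antisense genes, had 1.86, 1.19 and 1.08 times as many reads in the summed counts.

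**Figure D5:**
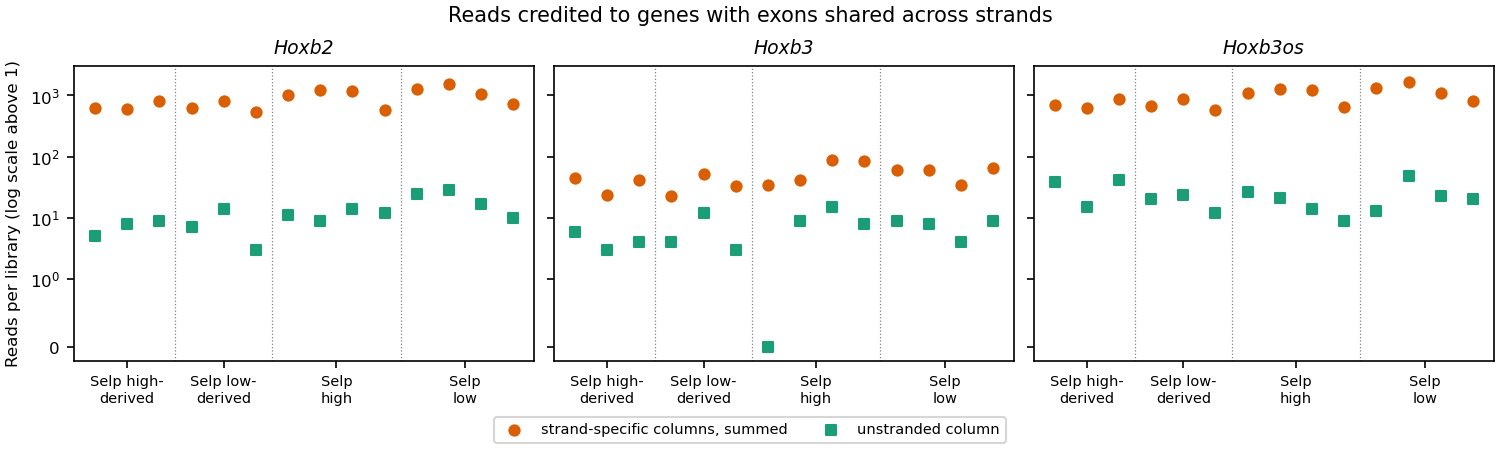
Reads per library for Hoxb2, Hoxb3 and the antisense gene Hoxb3os, in the 2 strand-specific counts added together (circles) and in the unstranded count (squares), with post-transplant groups at the left. The vertical axis is logarithmic above 1, and the Hoxb2 circles run from 527 to 1567 reads while its squares run from 3 to 29.

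In the unstranded count, other genes inside the clusters had at most 714 reads each over the 14 libraries. Of 46 annotated genes between the first and last Hox gene of a cluster, 7 were tested in that count and none was called. In the summed counts the antisense gene Hoxaas3, which shares exon bases with Hoxa7 and Hoxa3, had 2068 reads, against 163 unstranded. Its log2 fold change there was -0.56 ± 0.18 (edgeR adjusted p = 0.0278), and that of Hoxb3os -0.56 ± 0.15 (edgeR adjusted p = 0.0123). The unstranded count, which leaves out shared bases, gave -0.32 ± 0.37 for Hoxaas3 (edgeR adjusted p = 0.566). For Hoxb3os it gave 0.27 ± 0.35 (edgeR adjusted p = 0.603). A fall of the antisense transcripts themselves was therefore not shown. The antisense gene Hoxb5os averaged 2.02 ± 0.848 CPM after and 1.66 ± 0.457 CPM before transplantation (log2 fold change 0.29 ± 0.27, edgeR adjusted p = 0.460), beside -0.95 for Hoxb5. The precursor locus of miR-196b, which lies inside Hoxa9, averaged 0.669 ± 0.285 CPM after and 0.989 ± 0.174 CPM before (-0.59 ± 0.28, edgeR adjusted p = 0.133). It shares 85 exon bases with Hoxa9 on the same strand and has no unshared exon base. Its reads therefore cannot be told apart from Hoxa9 reads, and why they were counted for it was not examined. Of the 24 nearest protein-coding neighbors outside the clusters, 20 were tested, 4 rose and 3 fell, beside 12.9% of all genes called as higher and 14.6% as lower. Their median change was 0.13, beside -0.01 over all genes. Skap1, a T cell adaptor gene beside the Hoxb cluster, fell (3.07 ± 1.58 CPM after and 9.46 ± 2.08 CPM before, log2 fold change -1.63), as did Nfe2l2 beside the Hoxd cluster (-0.44), the oxidative stress factor Nrf2. The heterochromatin protein genes rose: Cbx1 beside Hoxb (0.68), Cbx5 beside Hoxc (0.91) and Cbx3 beside Hoxa (0.83), and Mtx2, a mitochondrial import gene beside Hoxd, rose by 0.27. The 3 neighbors with the highest levels, Tax1bp1 at 522 and 477 CPM, Atp5g3 at 318 and 267 CPM and Skap2 at 240 and 250 CPM after and before transplantation, were not called.

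Of the TALE cofactors of Hox proteins, 8 of 9 were tested, 2 rose and 3 fell after transplantation, with a median change of -0.23. The shares over all genes, here and for the lists that follow, were 12.9% called as higher and 14.6% as lower, with a median of -0.01. Meis2 averaged 0.72 ± 0.489 CPM after and 7.61 ± 2.58 CPM before (log2 fold change -3.40 ± 0.54, edgeR adjusted p = 0.000387). Meis3 averaged 9.54 ± 4.09 CPM after and 33.9 ± 7.17 CPM before (-1.83 ± 0.26, edgeR adjusted p = 0.000178), and for both genes the stages did not overlap. Pbx4 (0.83 ± 0.19) and Pknox1 (0.47 ± 0.13) rose. Meis1, the partner of Hoxa9 and the most abundant of the list, averaged 433 ± 16.2 CPM after and 474 ± 41.8 CPM before and was not called (-0.13 ± 0.07, edgeR adjusted p = 0.197).

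Activators of Hox clusters had 18 of 21 members tested, with 7 higher and 2 lower (38.9% and 11.1%) and a median change of 0.18. Psip1, which tethers MLL complexes to chromatin, averaged 182 ± 18.1 CPM after and 124 ± 23.8 CPM before (log2 fold change 0.56), and the MLL complex subunit Ash2l rose by 0.38 and the MLL complex methyltransferase Kmt2b by 0.70. Kdm6a, the H3K27 demethylase, averaged 59.4 ± 6.17 CPM after and 102 ± 24.0 CPM before (-0.78), and Mllt3, a super elongation complex subunit that supports human HSC maintenance, 169 ± 56.7 CPM after and 298 ± 61.0 CPM before (-0.79). Mllt1, a subunit of the same complex, rose by 0.31. The 3 members that were not tested, the Cdx genes that activate central Hox genes in the embryo, had no read in any library.

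Polycomb repressors had 21 of 21 members tested, with 7 higher and 4 lower (33.3% and 19.0%) and a median change of 0.02. The methyltransferase genes of Polycomb repressive complex 2 moved in opposite directions: Ezh2 averaged 53.2 ± 8.90 CPM after and 23.7 ± 5.54 CPM before (log2 fold change 1.17, edgeR adjusted p = 0.000156), and Ezh1 136 ± 24.8 CPM after and 251 ± 35.8 CPM before (-0.88, edgeR adjusted p = 0.000203). Mtf2, an accessory subunit of that complex, rose by 0.59 and Phf19 by 0.76. Bmi1, a subunit of Polycomb repressive complex 1 needed for HSC self-renewal, averaged 69.3 ± 7.59 CPM after and 116 ± 15.2 CPM before (-0.73), and Cbx7, a chromodomain subunit of that complex, 32.4 ± 4.20 CPM after and 64.1 ± 13.6 CPM before (-0.98). No Polycomb or activator gene was called in the Selp comparisons.

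Genes known downstream of Hoxa9 or Meis1 numbered 15, all tested, with 4 higher and 4 lower (26.7% of the list each) and a median change of -0.09. Sox4, an oncogenic partner in leukemia, averaged 249 ± 38.5 CPM after and 126 ± 41.3 CPM before (log2 fold change 1.04), and Cd34, a surface marker that long-term HSCs of adult mice largely lack, 315 ± 74.6 CPM after and 154 ± 24.1 CPM before (1.03). Lmo2, a stem cell transcription cofactor, averaged 1230 ± 59.9 CPM after and 1590 ± 129 CPM before (-0.37). Erg and Id2 fell by 0.35 and 0.76, and Myb rose by 0.33.

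Some markers of HSCs, endothelial cells and stromal cells moved with the stage. Of 13 genes listed as HSC markers 7 fell, led by Slamf1, the gene of the sort marker CD150 (108 ± 10.8 CPM after and 224 ± 33.1 CPM before, log2 fold change -1.05). Flt3, a multipotent progenitor receptor that the list also held, rose (0.85). Endothelial markers summed to 232 to 573 CPM after and 568 to 935 CPM before. Most of that sum was Vwf, at 217 to 544 CPM after and 478 to 837 CPM before. Kdr (-2.12), Plvap (-2.51) and Vwf (-0.85) were called lower among 6 of 7 tested. Cdh5 was at 0 in 6 of 14 libraries, and Cdh5, Ptprb and Stab2 reached at most 1.22, 1.45 and 3.1 CPM. Stromal markers summed to 30.9 to 50.2 CPM after and 33.5 to 86.1 CPM before. Lepr (-2.58), Dcn (-5.34) and Pdgfrb (-0.57) were called lower among 9 of 15 tested, and the other 6 were not called. Dcn was at 0 in 4 libraries and ran from 0 to 40.9 CPM before transplantation. Col1a1 and Alpl reached more after (6.14 and 4.71 CPM) than before (1.62 and 3.05 CPM). Cxcl12 and Adipoq reached less after (14.4 and 1.88 CPM) than before (42.8 and 4.47 CPM). Prrx2 and Bglap were at 0 in 13 of 14 libraries. None of the 13 neutrophil, 8 erythroid or 6 tested B cell markers was called by edgeR, with median changes of -1.25, -0.10 and -0.17, and the B cell markers summed to 66.7 to 123 CPM after and 63.4 to 126 CPM before. The part of these markers in the Hox differences was not tested. Without the pair of libraries from mouse 4 and without Selp low-derived replicate 2, the 3 libraries with the most neutrophil RNA, 11 Hox genes were called, all lower, beside 16.2% of 17123 genes called as lower in that fit. Of the 9 calls with all libraries 8 were kept, and Hoxa7, Hoxa9 and Hoxb2 were added. For Hoxa7 and Hoxa9 the libraries left out held the lowest value of each pre-transplant group and the highest post-transplant value. Their added calls are therefore no support for a fall.

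Promoters from RefSeq (GRCm38.p6), 300 bases each with 250 before and 50 after the annotated start, are shown for the strongly lower Hoxa5, for Hoxb4, and for Hoxa9, whose level did not pass the test. CpG dinucleotides are in capitals. The windows are chr6:52204538-52204837 on the minus strand for Hoxa5, chr11:96318017-96318316 on the plus strand for Hoxb4 and chr6:52227321-52227620 on the minus strand for Hoxa9.
Hoxa5 promoter: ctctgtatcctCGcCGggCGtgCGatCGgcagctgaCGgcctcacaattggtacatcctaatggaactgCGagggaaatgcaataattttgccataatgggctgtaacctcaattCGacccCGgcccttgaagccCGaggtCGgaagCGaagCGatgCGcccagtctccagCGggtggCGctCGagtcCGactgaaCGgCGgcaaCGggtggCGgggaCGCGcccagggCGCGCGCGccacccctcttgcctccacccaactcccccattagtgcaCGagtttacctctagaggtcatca
Hoxb4 promoter: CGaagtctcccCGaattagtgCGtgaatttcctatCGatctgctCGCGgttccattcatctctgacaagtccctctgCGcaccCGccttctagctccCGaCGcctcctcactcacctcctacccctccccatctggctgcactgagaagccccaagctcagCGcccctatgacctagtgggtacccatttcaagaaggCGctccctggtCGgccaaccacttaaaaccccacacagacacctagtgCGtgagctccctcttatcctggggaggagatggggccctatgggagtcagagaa
Hoxa9 promoter: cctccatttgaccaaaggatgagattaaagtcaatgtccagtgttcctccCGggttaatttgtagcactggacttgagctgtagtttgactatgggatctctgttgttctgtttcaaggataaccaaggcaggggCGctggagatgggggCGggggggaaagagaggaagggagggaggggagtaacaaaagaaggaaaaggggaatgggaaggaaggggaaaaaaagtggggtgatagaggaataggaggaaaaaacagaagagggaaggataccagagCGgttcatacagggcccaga
The Hoxa5 window held 29 CpG dinucleotides, more than 87.0% of 32544 promoters of the same length, the Hoxb4 window 14, more than 63.5%, and the Hoxa9 window 4, more than 31.0%. These 3 were chosen with the stage changes known. Of the other tested genes with a window, Hoxa3 and Hoxa6, which fell, held 20 and 26. Among those not called, Hoxa10 held 12 and 21 in its 2 windows, Hoxb8 13 and Hoxa2, Hoxa7 and Hoxc4 9 each. Genes that fell and genes not called overlapped only through the Hoxa10 window with 21. A link between CpG number and the stage change was not tested. The letters AGGTCA, a retinoic acid receptor half-site, searched on both strands, occurred in the Hoxa5 window at base 292 and, as the reverse complement, in the Hoxb4 window at base 170. That motif was in 16.2% of all promoters and in 7 of 24 Hox promoters. The letters CCAAT, also on both strands, were in the Hoxa5 window, in 37.4% of all promoters and in 15 of 24 Hox promoters. A match of letters is not a binding site.

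The Hox clusters also hold microRNA genes, of which the miR-196 family is known to target Hox transcripts. The mature sequences from RefSeq, with the seed (bases 2 to 8) in capitals, show that the copies in the Hoxa cluster and in the Hoxb and Hoxc clusters share 1 seed, and miR-10a of the Hoxb cluster and miR-10b of the Hoxd cluster another. They lie at chr6:52230129-52230150 on the minus strand (miR-196b), chr11:96265187-96265208 and chr15:102973365-102973386 on the plus strand (both copies of miR-196a), chr11:96317186-96317208 (miR-10a, plus strand) and chr2:74726074-74726096 (miR-10b, plus strand).
miR-196b-5p: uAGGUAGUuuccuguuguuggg
miR-196a-5p: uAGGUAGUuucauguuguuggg
miR-10a-5p: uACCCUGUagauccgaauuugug
miR-10b-5p: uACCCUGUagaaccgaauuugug
The seed match of miR-196, ACTACCT, occurred in the annotated 3′ UTR of 9 of 39 Hox genes (23.1%) and of 6.5% of 21045 genes. Among the 9 Hox genes lower after transplantation 4 held it, Hoxa5, Hoxb6 and Hoxb7 among them, and among the 10 tested genes not called 3 did (Hoxa4, Hoxa7 and Hoxa9). The matches of 4 of these genes, with the seed match in capitals, are as follows.
Hoxa5: gatatttttattcaaACTACCTa
Hoxb6: ctggaaggagcacatACTACCTa
Hoxb7: actgtaaaaaaatatACTACCTa
Hoxa9: gcaaaaggaaagaaaACTACCTt
The seed match of miR-10, ACAGGGT, occurred in 10.3% of the Hox genes and in 13.1% of all genes. Mature microRNAs carry no poly(A) tail and were not measured by these libraries.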

How the data were processed

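RNA was measured in 14 libraries in 4 groups of LT-HSCs. Per the labels' protocols, cDNA was made from 5000 sorted cells by template switching and libraries by tagmentation. The deposited files hold raw read counts per gene. The authors aligned to GRCm38 and counted with STAR 2.7.0d, according to the submitters' processing notes, and the counting settings are not stated. Unstranded counts were used, since the sums of the strand-specific counts had a ratio of 0.989 to 0.999. Unmapped, multimapping, unassigned and ambiguous reads (3.35 to 5.06%, 9.93 to 13.4%, 3.37 to 5.13% and 4.20 to 4.79%) stayed out of library sizes. All 55450 identifiers matched GENCODE release M21, used for symbols and positions.

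Testing used edgeR 4.0.16 under R 4.3.3, with TMM factors, the expression filter with a minimum count of 10 (16878 genes kept) and the quasi-likelihood test on 4 group means over all 14 libraries. This fit had no term for mouse, so both pre-transplant libraries of a mouse counted as independent. Fold changes are log2 with the SE of the fit, and calls were made at an adjusted p (Benjamini-Hochberg, over all genes tested) under 0.05. CPM values are scaled by TMM library sizes. Companion lists are described by counts and have no test. The 6 comparisons are the stage difference as a mean of inputs and per input, the Selp difference after and before transplantation, and the difference of these. DESeq2 1.42.0, limma 3.58.1 voom and other settings were alternatives. On simulated data with 16878 genes, 72% of genes changed by 1 on the log2 scale and 94% of those changed by 2 were recovered in the stage comparison. The shares were 62% and 83% before transplantation, and 47% and 87% after it. The changed genes, 100 of each size, had a mean of at least 1 CPM, and the simulated libraries were independent, without pairs from a mouse. The shares therefore do not hold for Hox genes below that level.

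Members and lists were chosen with earlier results of these data known. Values of each library are given for Hox genes called in any comparison, for the 10 highest per kilobase and for the 2 with the smallest p in each comparison. Of the lists, the called genes with the smallest p (up to 6) and the 2 most abundant could be named, and of the cluster neighbors up to 6 called genes and the 3 most abundant. Deviations from group means correlated at r = 0.29 to 0.53 across genes for pre-transplant libraries with the same number, against -0.40 to 0.05 for other pairs, and the numbers were read as the 4 mice. Post-transplant libraries sharing a number (r = -0.05 to 0.02) were left unpaired. Libraries within a group differed by more than sampling noise (chi-square per degree of freedom 18.8 to 150 over 18 pairs). Protein sequences of the Hox genes were not used here, and the values of a few genes are not reported here.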

Additional observations from a re-analysis of the deposited data

Results flagged for a closer look

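Hoxb5 in Selp high replicate 4 had a log2 CPM of 3.83 (14.2 CPM), far below the other 3 libraries of its group at 23.6 to 24.3 CPM. Its gap to the nearest of them was 0.936 of the group's range, past Dixon's limit of 0.829 for 4 samples. Hoxb9 in Selp high replicate 1 had a log2 CPM of 3.74 (13.3 CPM), far above the other 3 at 9.16 to 9.47 CPM, with a gap of 0.925 of the range. These were 2 of 38 groups tested, and chance alone flags about 1 in 20. Hoxb2 had 12661 reads in the strand-specific counts, which the comparisons of Hox genes did not use, beside 173 in the unstranded count.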

How the results depend on the processing

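With both inputs together, 7 to 10 Hox genes were called when any library was left out and 8 to 11 under the other alternatives, all lower in each. Hoxa5, Hoxa6, Hoxb4, Hoxb5, Hoxb6 and Hoxb9 were called in all 23 alternatives. Counts were 3 to 7 for Selp high input and 1 to 5 for Selp low input when a library was left out, and 0 in every Selp comparison. With a replicate block the counts were 10, 7 and 5 for both inputs, Selp high and Selp low input, and 0 for the Selp comparisons. The block added a call of Hoxa7 with both inputs (-0.54) and from Selp low input, and of Hoxa6 from Selp high input (-1.49, adjusted p = 0.0496). Across stages the libraries share only a number, and number 4 exists only before transplantation. The block in the stage comparisons is therefore not separate from leaving out mouse 4, and neither supports a fall of Hoxa7. The number of Hox genes tested was 21 and 15 with minimum counts of 5 and 20, and 13 with a mean of at least 1 CPM. The log2 stage changes of 3 low, uncalled genes turned sign and the cause was not tested. That of Hoxb8 (0.12) was -0.19 with voom, -0.16 with the replicate block, -0.02 without the libraries of mouse 4, -0.61 without these and Selp low-derived replicate 2, -0.87 without the pair of Selp low-derived replicate 2 and Selp high-derived replicate 1, and -0.46 and -0.28 without either of this pair alone, in a range of -0.46 to 0.36 over single libraries left out. That of Hoxc5 (-0.16) was 0.76 with the block, 0.52 without the libraries of mouse 4, 0.48 without these and Selp low-derived replicate 2, and 0.09, 0.09, 0.28 and 0.08 without Selp high-derived replicate 3, Selp low-derived replicate 1, Selp high replicate 4 and Selp low replicate 4 (range -0.48 to 0.28). That of Hoxc4 (0.88) was -0.09 with voom, -0.20 without mouse 4 and with Selp low-derived replicate 2 also left out, -0.41 without the pair named for Hoxb8, and -0.41 without Selp low-derived replicate 2 alone (range -0.41 to 1.15). Hoxb8, Hoxc4 and Hoxc5 had 157 to 206 reads each in all. The changes of Hoxa4 and Hoxb2, also low in reads, kept their sign in all 23 alternatives. The 134 and 173 unstranded reads of Hoxa4 and Hoxb2 leave out those over bases shared with antisense genes (249 and 12661 in the summed counts).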
